A study of Mus musculus with 6 samples.

Results

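The Bcl2 family sets the threshold for mitochondrial apoptosis, and 10 of its genes were followed here in FLT3L-derived type 1 conventional dendritic cells (cDC1s) with and without deletion of c-Jun and JunB, which belong to the AP-1 family of transcription factors. The 10 genes were taken by name, not by their values, from the 54532 gene identifiers in the count tables. They cover 5 anti-apoptotic genes (Mcl1, Bcl2, Bcl2l1, Bcl2a1b and Bcl2a1d), 2 effectors (Bax and Bak1) and 3 BH3-only genes (Bcl2l11, Bbc3 and Pmaip1). All 10 had enough reads to be tested. As a set they are therefore genes of survival and of death in equal number. The study sorted cDC1s (CD24+ CD11c+ B220- CD115- CD172a-) from bone marrow cultured with 80 ng/mL FLT3L for 8 days and sequenced polyadenylated RNA of 6 libraries, which asks how c-Jun and JunB shape the transcriptome of cDC1s. 3 libraries came from c-Jun/JunB fl/fl bone marrow, titled WT, and 3, titled KO, from bone marrow in which an Itgax-Cre transgene deletes both genes (c-Jun/JunB Δ/Δ Itgax-Cre); they are called fl/fl 1 to 3 and Δ/Δ 1 to 3 here. Both groups carry the floxed alleles of both genes, and only the second carries Cre. The promoter of Cre is that of Itgax (CD11c), so that deletion follows the onset of CD11c expression. The study places this loss at the stage of conventional dendritic cell precursors. The study used mice of 8 to 16 weeks and of mixed background. The labels do not tie the libraries to mice, but the study's supplementary text treats each of these RNA-seq samples as 1 mouse.

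In healthy cells the anti-apoptotic proteins (Mcl-1, Bcl-2, Bcl-xL encoded by Bcl2l1, and A1 encoded by the Bcl2a1 genes) hold Bax and Bak in check at the mitochondrial outer membrane. BH3-only proteins (Bim encoded by Bcl2l11, Puma by Bbc3 and Noxa by Pmaip1) occupy the groove of the anti-apoptotic proteins after stress or loss of growth factors, and Bax and Bak then permeabilise the membrane and release cytochrome c. Dendritic cells are short-lived cells whose survival is known to depend on this balance. Much of it is set at the protein level, since Mcl-1 and Noxa are rapidly degraded and Bim is regulated by phosphorylation, and RNA does not show those steps.

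The A1 genes call for a look at their sequence before their values. Mouse has several near-identical A1 copies on chromosome 9, and reads that match more than 1 copy were not counted. The first 75 coding bases of the 3 copies with enough reads to be tested are printed because they show how few bases tell the copies apart, with the 6 positions that differ among them in capitals. They were read from the GENCODE M21 transcripts on GRCm38 and lie at chr9:88957051-88957125 on the plus strand for Bcl2a1a, chr9:89199360-89199434 on the plus strand for Bcl2a1b and chr9:88731645-88731719 on the minus strand for Bcl2a1d.
Bcl2a1a: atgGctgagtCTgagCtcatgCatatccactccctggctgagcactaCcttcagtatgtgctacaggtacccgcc
Bcl2a1b: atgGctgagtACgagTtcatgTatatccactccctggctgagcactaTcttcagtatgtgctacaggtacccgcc
Bcl2a1d: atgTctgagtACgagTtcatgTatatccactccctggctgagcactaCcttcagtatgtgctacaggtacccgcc
Over the full coding sequence of 516 bases, 12 positions differed among the 3 copies, and any 2 copies were 97.9 to 98.8% identical. Of all stretches of 75 bases (the read length) in the transcript, 68.4% in Bcl2a1b, 67.6% in Bcl2a1d and 55.2% in Bcl2a1a also occur in another gene. The study sequenced reads in pairs, and either mate can tell the copies apart. These shares are therefore not the part left uncounted. The counts of these genes rest on pairs that cover a differing base, and their levels are uncertain. Bcl2a1b in addition shares 49.1% of its exon bases with the gene model Gm29094 on the same strand. For the other 8 members the share of 75-base stretches found in another gene was lower. It was 12.8% for Bak1 (with Ggnbp1), 6.84% for Bax, 4.67% for Bcl2, and 0 for the other 5. By exon bases Bak1 shares 18.2% with Ggnbp1 on the opposite strand, a gene with few reads of its own. Another annotated Ggnbp1 entry on that strand shares 7.35%. Bax shares 12.2% of its exon bases with Gm45808 on the same strand, and Bcl2 6.09% with D630008O14Rik on the opposite strand.

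The libraries held 21693217 to 26788296 reads on genes. Levels are given as CPM, the reads of a gene relative to the TMM-scaled total of its library, with their SD over 3 libraries. Junb was lower in all 3 Δ/Δ libraries (110 to 212 CPM against 274 to 413), with a log2 fold change of -1.02 (SE 0.25, edgeR adjusted p = 0.0729; DESeq2 adjusted p = 0.000119). Jun overlapped between the genotypes (44.3 to 60.5 against 52.5 to 70.9 CPM, log2 fold change -0.29, SE 0.15, adjusted p = 0.345), so read counts over the whole gene did not show its deletion. The study reports deletion of both genes by quantitative RT-PCR in cDC1s and cDC2s sorted from tissue of such mice. Its supplement also lists quantitative RT-PCR of both genes in cDC1s sorted on day 8 from FLT3L cultures of these genotypes. The values of that panel are shown only in a figure and were not read here. Itgax itself, whose promoter drives Cre, fell from 114 to 153 CPM in fl/fl to 44.8 to 69.0 CPM in Δ/Δ (log2 fold change -1.22, SE 0.17, adjusted p = 0.0147). The cDC1 identity of the sort was checked on 10 markers. Their summed level was 10695 to 11015 CPM in fl/fl and 8727 to 10614 CPM in Δ/Δ. Xcr1 and Tlr3 passed the test as lower. By log2 fold change 6 were lower and 4 higher (Itgae, 1.10, Cadm1, 0.32, Batf3, 0.09, and Irf8, 0.04). Of 8 cDC2 markers, summing to 185 to 295 CPM in fl/fl and 322 to 508 CPM in Δ/Δ, Cd4 and Klf4 passed as higher. By log2 fold change 6 of them were higher and 2 (Sirpa, -0.21, and Esam, -0.16) lower. Ccr9 also passed as higher among 7 plasmacytoid markers, which summed to 225 to 243 CPM in fl/fl and 245 to 295 CPM in Δ/Δ. Of those tested 5 were higher and 1 (Bst2, log2 fold change -0.41) lower. Adgre1 passed as higher among 9 monocyte and macrophage markers, with sums of 1794 to 1976 and 1969 to 2594 CPM. Of those tested 5 were higher and 2 (Ly6c2, -0.45, and Fcgr1, -0.36) lower. T and NK cell markers summed to about 1 CPM in every library, and neutrophil markers to 3.12 to 22.1 CPM with Ly6g and Elane at 0. The Δ/Δ libraries stood apart from each other, with a chi-square per degree of freedom over genes of 27.9 to 38.5 between any pair of them against 6.35 to 10.4 in fl/fl, and Δ/Δ 1 and Δ/Δ 2 differed most. Δ/Δ 2 had the highest level of all 10 genes of a mature dendritic cell list (such as Ccr7, Fscn1 and Ccl22), which summed to 3245 CPM there against 1434 to 1924 in fl/fl, 830 in Δ/Δ 1 and 1074 in Δ/Δ 3. Δ/Δ 2 was also highest in B cell markers (49.9 CPM against 12.8 to 30.9 elsewhere) and in basophil and mast cell markers (16.8 CPM against 0.463 to 2.47 elsewhere). Δ/Δ 1 was the lowest library for 8 of those 10 genes. Fold changes that rest on Δ/Δ 1 or Δ/Δ 2 are given with and without that library.

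No member passed the test between the genotypes, with log2 fold changes from -0.24 (Bak1) to 0.84 (Bcl2a1d) and a wide spread for the A1 genes and Pmaip1. By edgeR 0 of 10 members had an adjusted p under 0.05, beside 500 of 12894 genes tested (3.88%), of which 262 were higher (2.03%) and 238 lower (1.85%) in Δ/Δ. Asking for a change of 1 or more on the log2 scale in addition left 1.86% of all genes and again 0 of 10 members. At an unadjusted p under 0.05, 1 of 10 members (Bak1) was called, beside 19.4% of all genes. DESeq2 also called 1, again Bak1, where it called 8.57% of all genes, and limma-voom called 0. By log2 fold change 7 members were higher and 3 (Bcl2, Bax and Bak1) lower in Δ/Δ, with a median of 0.16 over the members and 0.00179 over all genes. For 7 of 10 members the 95% interval lay within a log2 fold change of 1 in either direction; the wider ones were those of Bcl2a1b, Bcl2a1d and Pmaip1. The means hide a difference in spread: the range over the 3 libraries on the log2 scale was wider in Δ/Δ than in fl/fl for 10 of 10 members, beside 70.5% of all genes. Since these are bulk samples, a lower level cannot be told apart as fewer cells that hold the transcript or less transcript per cell.

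**Figure D1:**
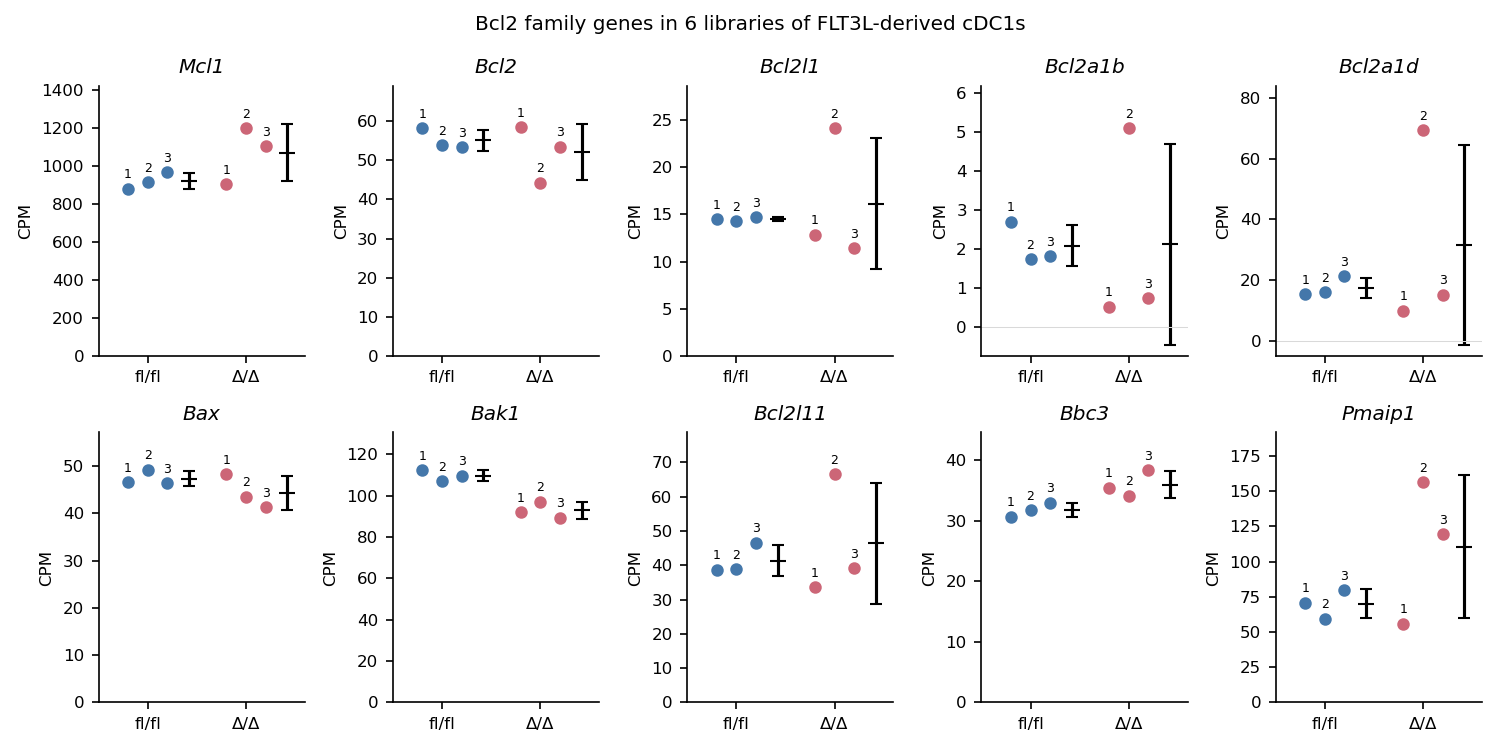
Level of each of the 10 Bcl2 family genes in CPM (linear axis) in the 3 fl/fl (blue) and 3 Δ/Δ (red) libraries; numbers are the replicate numbers and the black mark with its bars is the mean ± SD of the 3 libraries. Bcl2l1, Bcl2a1b, Bcl2a1d and Bcl2l11 have 1 high library, Δ/Δ 2, while Bak1 is lower in all 3 Δ/Δ libraries.

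Per length of transcript, Mcl1 was by far the most abundant member. Its level in fl/fl was 269 ± 12.9 CPM per kb of exon (SD, n = 3), and the next was the effector Bak1 at 44.4 to 46.6. Bax followed at 30.1 ± 1.03, Pmaip1 at 25.6 ± 3.76, Bcl2a1d at 20.3 ± 3.82 and Bbc3 at 14.4 to 15.5 CPM per kb. The lower part of the order held Bcl2 at 6.02 ± 0.291, Bcl2l11 at 5.16 ± 0.563, Bcl2l1 at 3.16 ± 0.0487 and Bcl2a1b at 2.56 ± 0.649. The level of Bcl2a1b is a lower bound, because ambiguous reads on the exon bases it shares with Gm29094 were not counted. Its last place is therefore uncertain. Of the 9 pairs of neighbours in this order, 7 had ranges that did not overlap; Pmaip1 and Bcl2a1d could not be separated, nor could Bcl2l1 and Bcl2a1b. With the length of the longest transcript in place of all exons, Bcl2 and Bcl2l11 changed places and 6 pairs were separated. Mcl1 made up 88.7 to 90.0% of the summed anti-apoptotic level in fl/fl. Its share was 92.5% in Δ/Δ 1 and 92.3% in Δ/Δ 3 but 78.3% in Δ/Δ 2, the library with the highest Bcl2a1d. These shares are upper bounds, because the sum holds neither Bcl2a1a nor the reads that A1 copies share: with Bcl2a1a added they were 87.8 to 89.5% in fl/fl and 92.3, 74.9 and 91.6% in Δ/Δ 1 to 3.

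In Δ/Δ the order kept Mcl1 at the top, at 313 ± 43.9 CPM per kb, with Bcl2a1b last by mean only, at 0.646 to 6.22: in Δ/Δ 2 it lay above Bcl2l1 (5.26) and Bcl2 (4.83). Pmaip1 was second by mean at 40.5 ± 18.6 CPM per kb, ahead of Bak1 at 38.6 ± 1.65, Bcl2a1d at 36.5 ± 38.2 and Bax at 28.1 ± 2.25. The ranges of Pmaip1, Bak1, Bcl2a1d and Bax overlapped from each to the next, so their order in Δ/Δ is not fixed by these libraries. The log2 ratio of the summed anti-apoptotic to the summed effector and BH3-only level, a description over the members with no test, was 1.25, 1.34 and 1.35 in fl/fl and 1.38, 1.58 and 1.43 in Δ/Δ. All 3 Δ/Δ values lay above those of fl/fl, by 0.15 in the mean and by 0.0889 without Δ/Δ 2. The mean difference was 0.162 with Bcl2a1a added and 0.111 with the A1 genes left out, both tried after seeing the data. Single pairs did not all move this way. Per length, the log2 ratio of Bak1 to Mcl1 was -2.64 to -2.47 in fl/fl and lower, at -3.12 to -2.79, in Δ/Δ. That of Bcl2l11 to Mcl1 was -5.79 to -5.61 in fl/fl and -5.98, -5.40 and -6.05 in Δ/Δ, and that of Pmaip1 to Mcl1 was higher in Δ/Δ 2 and Δ/Δ 3 than in any fl/fl library.

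**Figure D2:**
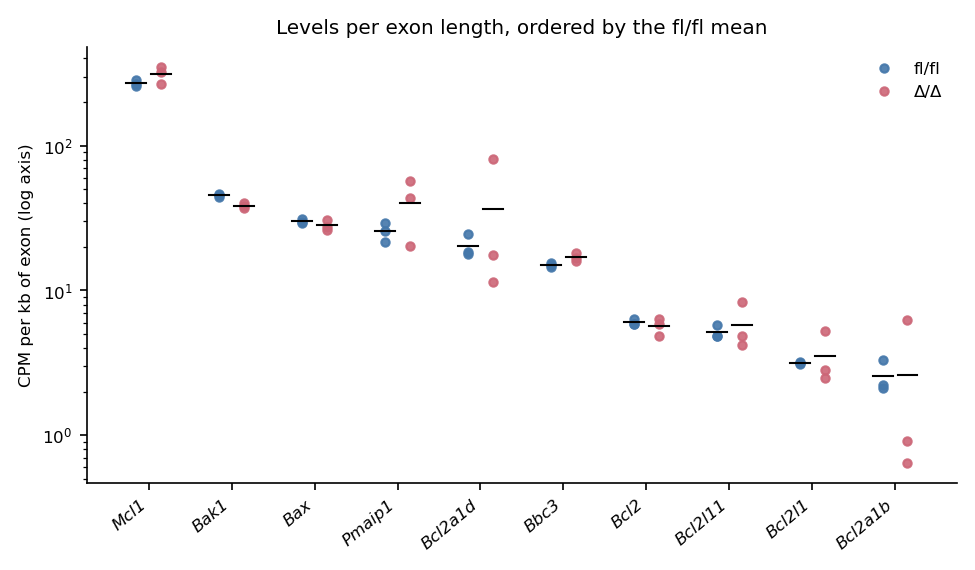
Level of the 10 genes per kb of exon (CPM per kb, log axis) in the fl/fl (blue) and Δ/Δ (red) libraries, ordered from left to right by the fl/fl mean; black lines are group means. Mcl1 at 269 CPM per kb in fl/fl lies above every other member, and Bcl2a1d and Bcl2a1b have the widest spread in Δ/Δ.

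Mcl1, which is needed for the survival of many haematopoietic cells, was at 881, 914 and 968 CPM in fl/fl and at 904, 1197 and 1104 CPM in Δ/Δ. Δ/Δ 2 and Δ/Δ 3 lay above every fl/fl library, and Δ/Δ 1 lay within their range. The means were 921 ± 44.1 and 1068 ± 150 CPM, with a log2 fold change of 0.21 (SE 0.10, 95% interval -0.03 to 0.46, adjusted p = 0.318). Without Δ/Δ 1 the change was 0.32 with an adjusted p of 0.0284, in a fit that called 9.96% of all genes. Without Δ/Δ 2 it was 0.12 with an adjusted p of 0.523. The call of Mcl1 thus depends on which library is left out.

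Bcl2, the founding anti-apoptotic member, was at 58.2, 53.8 and 53.3 CPM in fl/fl and 58.4, 44.2 and 53.4 CPM in Δ/Δ. The groups overlapped, and Δ/Δ 2 was the lowest library, opposite to its place for the other anti-apoptotic members. The log2 fold change was -0.08 (SE 0.11, 95% interval -0.34 to 0.17, adjusted p = 0.721), and it was 0.021 without Δ/Δ 2, a fit in which 5.43% of all genes and 0 of 10 members were called.

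Bcl2l1, whose main product Bcl-xL guards the mitochondria of many cell types, was nearly constant in fl/fl at 14.5, 14.3 and 14.7 CPM. In Δ/Δ it was at 12.9, 24.1 and 11.4 CPM, so that 2 libraries lay below and 1 above all fl/fl libraries. The log2 fold change of 0.15 (SE 0.27, 95% interval -0.49 to 0.80, adjusted p = 0.800) became -0.26 without Δ/Δ 2 (adjusted p = 0.312).

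The A1 genes, which are induced by NF-kappaB in activated haematopoietic cells, had the widest spread of all members. Bcl2a1d was at 15.3, 15.9 and 21.3 CPM in fl/fl and at 9.94, 69.5 and 15.2 CPM in Δ/Δ. Δ/Δ 1 lay below all fl/fl libraries, Δ/Δ 3 just below the lowest of them and Δ/Δ 2 at 3.96 times the fl/fl mean. The log2 fold change was 0.84 (SE 0.67, 95% interval -0.74 to 2.42, adjusted p = 0.534) and turned to -0.48 without Δ/Δ 2 (adjusted p = 0.307). Bcl2a1b was at 2.70, 1.74 and 1.82 CPM in fl/fl, which is 43 to 70 reads, and at 0.527, 5.09 and 0.749 CPM in Δ/Δ, which is 13 to 109 reads. It shows the same arrangement, with Δ/Δ 1 and Δ/Δ 3 at 0.253 and 0.358 times the fl/fl mean and Δ/Δ 2 at 2.43 times. Its log2 fold change of 0.01 (SE 0.80, 95% interval -1.88 to 1.90, adjusted p = 0.995) became -1.71 without Δ/Δ 2, with an adjusted p of 0.0571.

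Bcl2a1a was at 2.28, 1.56 and 2.80 CPM in fl/fl and 0.649, 16.7 and 2.25 CPM in Δ/Δ, where Δ/Δ 2 was at 7.56 times the fl/fl mean (log2 fold change 1.56, SE 1.01, adjusted p = 0.445). Without Δ/Δ 2 its log2 fold change was -0.62 (adjusted p = 0.582). Bcl2a1c was listed at 0 in all fl/fl libraries and at 0.044 to 0.233 CPM in Δ/Δ, too low to be tested. Summing Bcl2a1a, Bcl2a1b and Bcl2a1d, which removes the division of counted reads among them but does not restore the shared reads, gave 20.3, 19.2 and 26.0 CPM in fl/fl and 11.1, 91.3 and 18.1 CPM in Δ/Δ. The sum was again low in 2 Δ/Δ libraries and high in 1, with a log2 fold change of 0.88 (SE 0.72, adjusted p = 0.543) that turned to -0.58 without Δ/Δ 2 (adjusted p = 0.236), a fit added after seeing the data. Bcl2a1d took 75.5 to 89.4% of the summed CPM in every library. Bcl2a1a took 18.3% in Δ/Δ 2 against 5.84 to 12.4% in the other 5. These shares hold counted reads only, without those on the exon bases that Bcl2a1b shares with Gm29094.

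**Figure D3:**
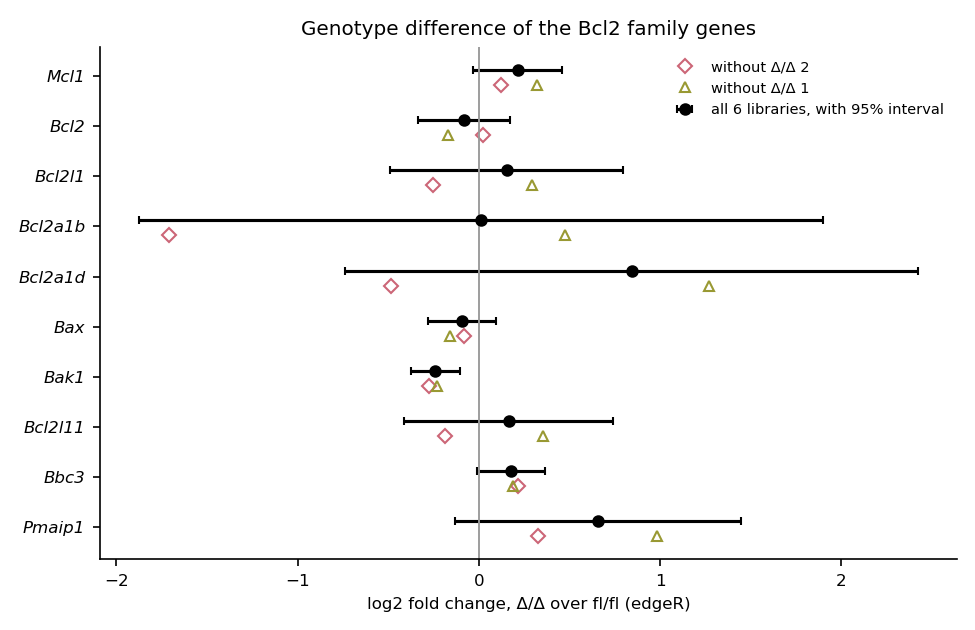
Log2 fold change of the 10 genes in Δ/Δ over fl/fl by edgeR, with the 95% interval for all 6 libraries (black), without Δ/Δ 2 (red diamonds) and without Δ/Δ 1 (green triangles). Bcl2, Bcl2l1, Bcl2a1b, Bcl2a1d and Bcl2l11 are on opposite sides of 0 with and without Δ/Δ 2, and the interval of Bak1 alone excludes 0.

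Bak1, the effector that resides in the mitochondrial outer membrane, came closest to a call among the members. It was at 112, 107 and 110 CPM in fl/fl and at 92.1, 97.1 and 89.2 CPM in Δ/Δ. The groups did not overlap, as was true in this direction of 12.3% of all genes. The mean went from 109.6 ± 2.65 to 92.8 ± 3.98 CPM, which is 0.847 times the fl/fl level (log2 fold change -0.24, SE 0.06, 95% interval -0.38 to -0.10). Its adjusted p of 0.0708 missed the threshold by edgeR, while DESeq2 gave an adjusted p of 0.0391 for a log2 fold change of -0.24. Leaving out any 1 library kept the change between -0.27 and -0.21, so the value did not rest on a single library.

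Bax, the effector that moves from the cytosol to mitochondria, was at 46.5, 49.2 and 46.3 CPM in fl/fl and 48.2, 43.5 and 41.3 CPM in Δ/Δ. Δ/Δ 1 lay among the fl/fl libraries and the other two below them. The log2 fold change was -0.10 (SE 0.08, 95% interval -0.28 to 0.09, adjusted p = 0.555), which bounds a fall in Bax more tightly than for most members.

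Among the BH3-only genes, Bbc3, a p53 target encoding Puma, was the single member whose Δ/Δ libraries all lay above fl/fl, beside 13.7% of all genes. Its levels were 30.7, 31.8 and 33.0 CPM in fl/fl and 35.5, 34.1 and 38.4 CPM in Δ/Δ. The difference between 31.8 ± 1.17 and 36.0 ± 2.18 CPM was a log2 fold change of 0.18 (SE 0.08, 95% interval -0.01 to 0.36, adjusted p = 0.278), and it stayed between 0.13 and 0.21 with any 1 library left out. Genes with no overlap in either direction were 2 of 10 members (Bak1 and Bbc3) and 26.0% of all genes.

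Bcl2l11, which encodes Bim and is needed for the death of many leukocytes after growth factor loss, was at 38.7, 38.9 and 46.6 CPM in fl/fl. In Δ/Δ it was at 33.6, 66.6 and 39.2 CPM, with Δ/Δ 1 lowest and Δ/Δ 2 highest of all libraries. The log2 fold change of 0.17 (SE 0.25, 95% interval -0.41 to 0.74, adjusted p = 0.757) became -0.19 without Δ/Δ 2 (adjusted p = 0.451). The pro-apoptotic Bcl2l11 and the anti-apoptotic Bcl2l1 were thus both highest in Δ/Δ 2, at 1.61 and 1.67 times their fl/fl means.

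Pmaip1, which encodes Noxa, a partner of Mcl-1 and A1, had the second largest change by log2 fold after Bcl2a1d. It was at 70.7, 59.3 and 79.8 CPM in fl/fl and 55.7, 156 and 120 CPM in Δ/Δ. Δ/Δ 2 and Δ/Δ 3 lay above every fl/fl library, at 2.23 and 1.71 times their mean, and Δ/Δ 1 below every one of them. The log2 fold change was 0.66 (SE 0.34, 95% interval -0.13 to 1.45, adjusted p = 0.336). Without Δ/Δ 1 it was 0.98 with an adjusted p of 0.0110, and without Δ/Δ 2 it was 0.33 with an adjusted p of 0.597. Relative to Mcl1 per length, the log2 ratio of Pmaip1 was -3.62 to -3.28 in fl/fl and -3.70, -2.61 and -2.88 in Δ/Δ.

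The members thus fell into 3 arrangements over the libraries, a grouping made after their values were seen. 6 of 10 members (Bcl2l1, Mcl1, Bcl2a1b, Bcl2a1d, Bcl2l11 and Pmaip1) had their highest level in Δ/Δ 2, beside 18.7% of all genes. The mature dendritic cell list had the same library highest for 10 of 10 genes and Δ/Δ 1 lowest for 8 of 10, with a mean centred log2 CPM of 1.38 in Δ/Δ 2, -1.60 in Δ/Δ 1 and -0.75 in Δ/Δ 3. The centred level of Bcl2a1b was 1.59 in Δ/Δ 2, -1.49 in Δ/Δ 1 and -1.04 in Δ/Δ 3. In fl/fl the list was above its mean in all 3 libraries, while Bcl2l1 was below its own in all 3 and Bcl2a1d (-0.34 and -0.29) and Bcl2l11 (-0.15 and -0.14) were below theirs in fl/fl 1 and 2. The part of mature cells in the levels of the A1 genes, Bcl2l1 and Bcl2l11 was not tested.

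Mcl1, Pmaip1 and Bbc3 were the 3 members with both Δ/Δ 2 and Δ/Δ 3 above every fl/fl library, beside 21.8% of all genes. The 15 immediate early genes of a second list (such as Fos, Egr1 and Ier2), which respond within minutes to many stimuli, summed to 963 to 1322 CPM in fl/fl, 1166 in Δ/Δ 1, 2245 in Δ/Δ 2 and 2427 in Δ/Δ 3. By edgeR 0 of the 15 passed, beside 3.88% of all genes, and 0 by limma-voom. At an unadjusted p under 0.05, 8 were called, beside 19.4% of all genes. DESeq2 called 3 (Egr3, Fosb and Ier2), beside 8.57% of all genes. The median log2 fold change of the 15 immediate early genes was 0.79. The part of that response in the levels of Mcl1 and Pmaip1 was not tested either. Bak1, Bax, Bcl2 and Bbc3 varied least, with the highest over the lowest Δ/Δ library at 1.09, 1.17, 1.32 and 1.12, against 9.64 for Bcl2a1b and 6.99 for Bcl2a1d. Mcl1, also at 1.32, was not set apart from Bcl2 by this measure.

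**Figure D4:**
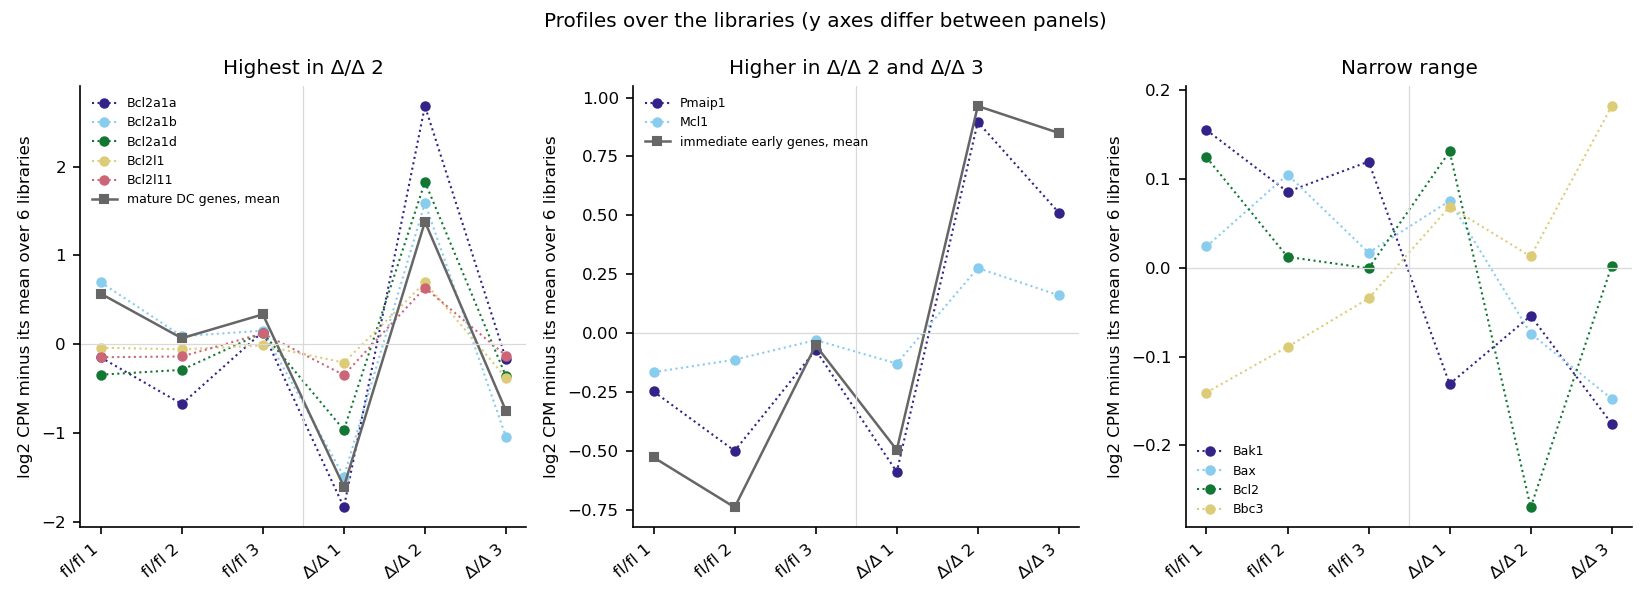
Log2 CPM of each gene minus its mean over the 6 libraries (y axes differ between panels); lines only join the points of 1 gene, and grey squares are the mean over the 10 mature dendritic cell genes (left) or the 15 immediate early genes (middle). The A1 genes, Bcl2l1 and Bcl2l11 are highest in Δ/Δ 2 like the mature dendritic cell genes, Pmaip1 and Mcl1 are high in Δ/Δ 2 and Δ/Δ 3, and the 4 genes on the right span less than 0.5.

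Other genes of the apoptotic machinery were described by fixed lists. Over all genes 3.88% passed by edgeR and 8.57% by DESeq2, and 19.4% had an unadjusted p under 0.05. Of 15 further Bcl2 family genes 9 were tested and 0 passed in either direction by edgeR, DESeq2 or limma-voom (0 at an unadjusted p under 0.05), with a median log2 fold change of 0.07. The 2 with the smallest p were Bcl2l2, encoding the anti-apoptotic Bcl-w, at 22.9 to 25.8 CPM in fl/fl and 23.9 to 31.5 CPM in Δ/Δ (log2 fold change 0.21, adjusted p = 0.397), and Bcl2a1a. Of 15 genes that act after mitochondrial permeabilisation all were tested and 1 fell by edgeR, beside 1.85% of all genes, with a median of -0.09 (7 at an unadjusted p under 0.05, 2 by DESeq2, Apaf1 and Vdac2, and 1 by limma-voom). This was Apaf1, the scaffold of the apoptosome, at 170, 185 and 178 CPM in fl/fl and 138, 148 and 145 CPM in Δ/Δ (log2 fold change -0.31, SE 0.06, adjusted p = 0.0370). Its Δ/Δ libraries were all below fl/fl, as was true of 12.3% of all genes. In the same list the Δ/Δ libraries of Vdac2, Vdac3 and Dffb also lay below fl/fl. Those of Endog and Dffa lay above, as was true of 13.7% of all genes.

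Of 9 inhibitor of apoptosis genes 8 were tested and 2 fell by edgeR and limma-voom, beside 1.85% of all genes by edgeR, with a median of -0.21 (3 at an unadjusted p under 0.05). DESeq2 called these and Birc3, which was higher in Δ/Δ (log2 fold change 0.49). These counts stand beside 19.4% of all genes at an unadjusted p under 0.05 and 8.57% by DESeq2. Naip5 went from 40.7, 44.5 and 43.6 CPM to 10.5, 9.66 and 15.1 CPM (log2 fold change -1.87, SE 0.17, adjusted p = 0.00346), and Naip2 from 40.8, 37.4 and 39.4 CPM to 19.4, 17.9 and 22.0 CPM (log2 fold change -0.99, SE 0.10, adjusted p = 0.00426). Both are known as inflammasome receptors for bacterial proteins rather than as regulators of Bcl2 proteins. Naip5 and Naip2 are near-identical copies in part, with 23.8% and 10.7% of their 75-base stretches found in another Naip gene. Their counts are therefore uncertain. Naip1 of the same list went the other way, and it was named after its values were seen. It was at 0 CPM in every fl/fl library and at 0.690, 0.607 and 0.396 CPM in Δ/Δ, too low to be tested. Of the 12 death receptor genes 11 were tested, with a median of 0.07, and 0 passed by edgeR, DESeq2 or limma-voom. At an unadjusted p under 0.05, 3 of them were called, beside 19.4% of all genes. The smallest p belonged to Casp8, the initiator caspase, at 60.2 to 62.6 CPM in fl/fl and 69.3 to 72.9 CPM in Δ/Δ (log2 fold change 0.21, adjusted p = 0.0952), and to Tnfrsf1a, a TNF receptor, at 103 to 112 and 118 to 128 CPM (log2 fold change 0.21, adjusted p = 0.124).

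Other targets of p53, and genes that control the members at the RNA or protein level, were mostly not called. Shares over all genes were 19.4% at an unadjusted p under 0.05, 3.88% by edgeR and 8.57% by DESeq2. Of 18 p53 targets outside the family 16 were tested and 1 rose by edgeR, beside 2.03% of all genes, with a median of 0.22 (6 at an unadjusted p under 0.05, 3 by DESeq2, Btg2, Trp53inp1 and Zmat3, and 1 by limma-voom). Trp53inp1, which encodes a stress protein that assists p53, went from 57.6, 62.3 and 61.6 CPM to 82.0, 79.6 and 93.5 CPM (log2 fold change 0.49, SE 0.08, adjusted p = 0.0208). Of 15 transcription factors that act on members 1 rose by edgeR, beside 2.03% of all genes, with a median of 0.09 (3 at an unadjusted p under 0.05, 3 by DESeq2, Nfkb1, Stat5a and Stat5b, and 1 by limma-voom). Stat5a, a cytokine-activated factor, went from 85.4, 89.7 and 94.0 CPM to 107, 121 and 130 CPM (log2 fold change 0.41, SE 0.08, adjusted p = 0.0460). Of 11 genes that act on the Mcl-1 or Bim protein 10 were tested and 0 passed by edgeR or limma-voom (2 at an unadjusted p under 0.05, and Dynll2 by DESeq2), with a median of 0.01. The smallest p there belonged to Dynll2, a dynein light chain that binds Bim and its relative Bmf, at 156 to 163 CPM in fl/fl and 119 to 139 CPM in Δ/Δ (log2 fold change -0.28, adjusted p = 0.0854), and to Mapk9, encoding the kinase JNK2, at 78.5 to 84.6 and 89.1 to 92.5 CPM (log2 fold change 0.14, adjusted p = 0.230).

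**Figure D5:**
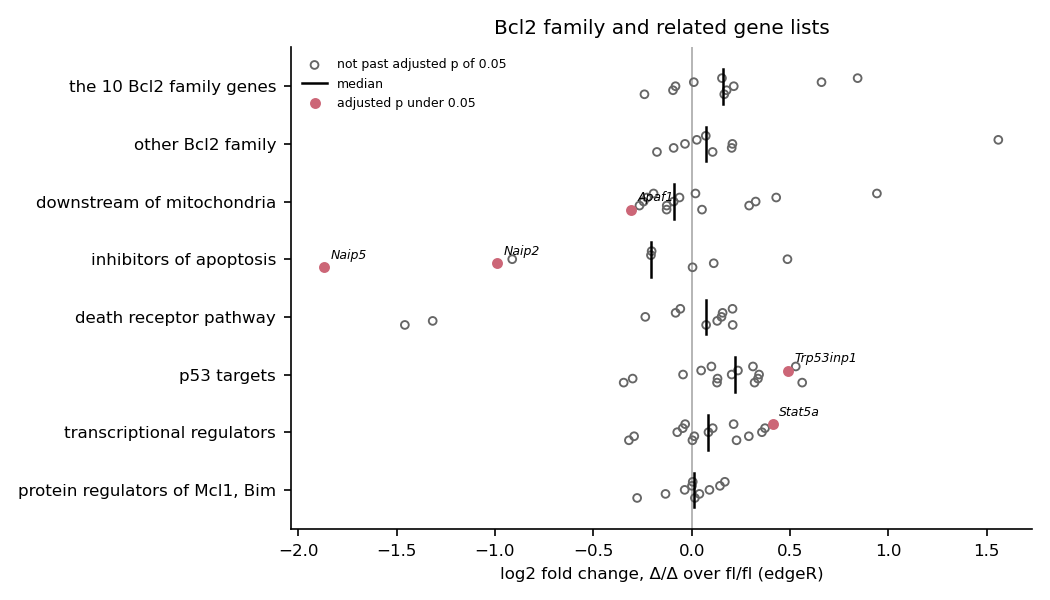
Log2 fold change in Δ/Δ over fl/fl of each tested gene of the Bcl2 family set and of 7 related lists; filled red points passed an adjusted p of 0.05 by edgeR, black lines are list medians and the grey line is the median of all genes. No gene of the top row passed, and the 5 that did in the other lists are Apaf1, Naip5, Naip2, Trp53inp1 and Stat5a.

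Promoters of the members were read for the binding motif of AP-1, since c-Jun and JunB bind DNA as part of AP-1. RefSeq promoter windows on GRCm38.p6, from 250 bases before to 50 bases after each transcription start, were at hand for 9 of 10 members (14 windows; not for Pmaip1) and for Bcl2a1a. The AP-1 consensus TGACTCA, searched on both strands, occurred in none of the 9 members and in 5.95% of 27018 genes with a window. The broader TGANTCA, which includes it, occurred in 2 of 9 members, Bcl2a1b and Bcl2a1d, and in Bcl2a1a, beside 8.98% of genes. The cyclic AMP response element TGACGTCA occurred in none of them (2.03% of genes), and the kappa-B motif in 2 of 9, Bcl2l1 and Bbc3 (5.14% of genes). The match in the A1 genes is printed with its surroundings, in the direction of transcription, because the copies share it; capitals mark the match, which begins 120 bases before the start in Bcl2a1a (chr9:88956760-88956846, plus strand), 164 in Bcl2a1b (chr9:89199069-89199155, plus strand) and 114 in Bcl2a1d (chr9:88731918-88732004, minus strand).
Bcl2a1a: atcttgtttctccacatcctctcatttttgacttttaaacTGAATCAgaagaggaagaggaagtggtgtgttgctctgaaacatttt
Bcl2a1b: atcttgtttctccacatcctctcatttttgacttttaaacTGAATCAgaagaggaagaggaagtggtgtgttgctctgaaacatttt
Bcl2a1d: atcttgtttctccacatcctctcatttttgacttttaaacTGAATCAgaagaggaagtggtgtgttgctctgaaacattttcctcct
The 3 stretches come from duplicated DNA and are not independent matches. A match is a description of the letters and not a bound site.

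By the rule that names the genes most like the member with the smallest p, the profile of Bak1 over the 6 libraries was matched most closely by Drg2, Anxa11 and Mfn2 among 11607 genes with a mean of at least 1 CPM. The root mean square difference of centred log2 CPM was 0.021, 0.0245 and 0.0255. Drg2, which encodes a GTP-binding protein, was at 35.2 to 35.9 CPM in fl/fl and 28.8 to 31.8 CPM in Δ/Δ. Mfn2, which encodes a fusion protein of the mitochondrial outer membrane, was at 59.0 to 61.3 and 48.8 to 51.7 CPM, and Anxa11, which encodes an annexin, at 43.7 to 45.0 and 35.6 to 40.3 CPM. With 6 libraries and this many genes, close profiles are common among genes that differ little, and their log2 fold changes of -0.22, -0.26 and -0.21 had adjusted p of 0.161, 0.0670 and 0.170.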

How the data were processed

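RNA of 6 libraries (3 c-Jun/JunB fl/fl, 3 c-Jun/JunB Δ/Δ Itgax-Cre) was analysed from the deposited counts. The authors aligned reads of a directional poly(A) library with STAR 2.6.1a to GRCm38 and counted uniquely mapped reads per GENCODE gene, so the deposited values are raw counts per gene, one table per library; no source used here gives the strand column that was kept. Tools and versions are from the submitters' processing notes and the methods.

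Counts were fitted with edgeR 4.0.16 (R 4.3.3): TMM scaling, filterByExpr (minimum count 10, minimum total 15), the quasi-likelihood test on genotype alone, and Benjamini-Hochberg adjustment over the 12894 genes tested; a gene passed at an adjusted p under 0.05. Rows of unmapped, multimapping, unassigned and ambiguous reads (20.3 to 20.9% of reads) stayed out. Levels per kb used merged exon length from GENCODE M21, in which 54495 of 54532 identifiers were found. Centred values used log2 CPM with a prior count of 2. DESeq2 1.42.0, limma 3.58.1, other scalings and filters, a replicate block, summed A1 counts and leaving out each library were alternatives. The fits were tested on simulated data. Depth of 21693217 to 26788296 reads on genes limits the precision of Bcl2a1b (13 to 109 reads) most.

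All members were named, as were the A1 paralogs, Jun, Junb, Itgax and, of each other list, up to 4 genes that passed or else the 2 with the smallest p; genes most like a member were chosen by root mean square difference. The members and lists were chosen with earlier results of these data known. Which 3 arrangements the members fall into was decided after seeing their values. Protein sequences and the Pmaip1 promoter are not printed here.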

Additional observations from a re-analysis of the deposited data

How the results depend on the processing

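Of 132 comparisons of a member's fold change with an alternative, 119 kept direction and side of the threshold, 3 newly passed it and 10 reversed. Mcl1, Bax, Bak1, Bbc3 and Pmaip1 never reversed. Without Δ/Δ 2 the log2 fold change reversed for Bcl2, Bcl2l1, Bcl2a1b, Bcl2a1d and Bcl2l11, leaving 4 members higher and 6 lower. With 1 library left out Bcl2 ranged from -0.17 to 0.021 (its reversed value), and the others from their reversed value of -0.26 to 0.35 (Bcl2l1), -1.71 to 0.48 (Bcl2a1b), -0.48 to 1.27 (Bcl2a1d) and -0.19 to 0.35 (Bcl2l11). In fits added after seeing the data the summed A1 counts ranged from -0.58 (without Δ/Δ 2) to 1.33 and Bcl2a1a from -0.62 (without Δ/Δ 2) to 2.10. Bcl2a1b, whose main value was 0.01, also reversed with library totals (-0.0045), limma-voom (-0.73), the replicate block (-0.62), and without fl/fl 2 (-0.10) or fl/fl 3 (-0.08). The cause was not tested. The members past the threshold numbered 1 by DESeq2 (Bak1), 1 at an unadjusted p, and 0 to 2 with 1 library left out (Mcl1 and Pmaip1 without Δ/Δ 1). Their median ranged from -0.13 (without Δ/Δ 2) to 0.31 with 1 library left out. Over all genes, 500 calls became 1104 by DESeq2, 762 with no filter, 2496 at an unadjusted p and 95 to 1320 with 1 library left out (95 in the absence of fl/fl 1 and also of fl/fl 2, 201 in that of fl/fl 3, 1320 in that of Δ/Δ 1). Junb passed by DESeq2 (-1.02, adjusted p = 0.000119), with no filter (-1.02, adjusted p = 0.0161), with the replicate block (-1.05, adjusted p = 0.0370) and without Δ/Δ 1 (-0.80, adjusted p = 0.0359); it ranged from -1.25 to -0.80 with 1 library left out.

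Replicate numbers are shared by the genotypes. Deviations from the group means had correlations of 0.0910, -0.148 and 0.200 between same-numbered libraries. Between differently numbered libraries of the 2 genotypes they were -0.221 to 0.152. With 3 libraries a genotype these values cannot tell whether same-numbered libraries were handled together. The block changed the direction of Bcl2a1b and the call of Junb, and no member's call. The alternatives for the log2 ratio of anti-apoptotic to other members (0.158 with the longest transcript, 0.162 with Bcl2a1a, 0.111 with no A1 genes, 0.0889 to 0.192 with 1 library left out, against 0.15) were added after seeing the data. With 3 libraries a genotype and a wide spread in Δ/Δ, changes of the A1 genes and Pmaip1 below about the size of their intervals were not detectable, and an uncalled member is not shown to be equal.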

Other observations

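The profiles closest to Bcl2a1d and to Pmaip1 were listed after their values were seen. Nearest to Bcl2a1d were Arhgef3 (5.51, 6.27 and 7.93 CPM in the fl/fl libraries, 3.41, 18.5 and 7.71 CPM in Δ/Δ), Sdc4 and Gpr141b, with root mean square differences of 0.277 to 0.292 in centred log2 CPM. Nearest to Pmaip1 were Gm20633, Dusp2 and Dusp1, at 0.0819 to 0.0849; Dusp1 and Dusp2 encode phosphatases of MAP kinases and are on the immediate early list. Dusp2 was at 24.2, 19.7 and 29.5 CPM in the fl/fl libraries and 22.1, 54.1 and 44.3 CPM in Δ/Δ. These 6 genes did not pass the test by edgeR.

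Among p53 targets, Cdkn1a, the cell cycle inhibitor p21, was at 42.6, 32.9 and 35.1 CPM in the fl/fl libraries and 30.2, 90.0 and 20.2 CPM in Δ/Δ, the arrangement of Bcl2l1 and the A1 genes. Bmf, the BH3-only partner of Dynll2, was at 92.6, 89.3 and 108.6 CPM in the fl/fl libraries and 79.0, 96.3 and 159 CPM in Δ/Δ, with its highest level in Δ/Δ 3. Both were picked after their values were seen, and neither passed the test.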
